A study of Mus musculus with 6 samples.

Results

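The TCA cycle and pyruvate metabolism were followed through 32 genes in the adipocyte fraction of mouse epididymal fat. Members were the rows of the count table whose Ensembl identifier carries, in the mouse annotation used here (GENCODE M21, GRCm38), a symbol from a given list of 32, and all 32 were found among the 35122 genes of the table. They encode the mitochondrial pyruvate carrier (2 genes), the pyruvate dehydrogenase complex (5), 3 of its kinases, its phosphatases (2), pyruvate carboxylase (1) and the enzymes of the cycle with their cytosolic counterparts (19). The rule itself uses no measured value.

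RNA was sequenced from 3 control mice (PU.1 fl/fl) and 3 aPU.1KO mice (AdipoqCre with PU.1 fl/fl), with 1 library for each mouse. All 6 were C57BL/6 males with a labelled age of 10 to 11 months on a standard chow diet, and all carried the floxed allele, in which loxP sites flank exon 5 of Spi1, the gene for the transcription factor PU.1. The aPU.1KO mice also carried Cre recombinase under the adiponectin promoter, which is active in adipocytes, and the control mice carried no Cre. Macrophages, in which Spi1 is abundant, are not a target of that promoter. The fraction was the floating layer of collagenase-digested fat pads, so that it could hold other cells. In the study's Western blot some PU.1 remained in aPU.1KO adipocytes, at a reduced level. The study names incomplete recombination and other PU.1-expressing cells, such as macrophages, as possible reasons. The comparison asked how the RNA of this fraction differed between aPU.1KO mice and floxed littermates.

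Glycolysis leaves pyruvate in the cytosol, from where the mitochondrial carrier brings it into the matrix. There the pyruvate dehydrogenase complex turns it into acetyl-CoA and pyruvate carboxylase turns it into oxaloacetate, and citrate synthase joins these products into citrate. In white adipocytes part of that citrate leaves the mitochondrion as the carbon source of fatty acid synthesis, pyruvate carboxylase refills the cycle, and kinases and phosphatases switch the pyruvate dehydrogenase complex off and on.

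Total counts were 69283842 in control mouse 1 and between 20550252 and 24310144 in the other 5 libraries. Spi1 itself stood at 24.3, 6.35 and 26.7 CPM (counts scaled to library size) in the control mice and at 3.2, 1.22 and 4.17 CPM in the aPU.1KO mice (log2 fold change -2.75 ± 0.64 SE, adjusted p = 0.0788 by edgeR and 7.77e-05 by DESeq2). All aPU.1KO values were below all control values, but counts over the exons that were not deleted also enter this gene total. Control mouse 2 stood apart from the other control mice in Spi1 and in the summed level of 14 macrophage markers, which was 1612, 479 and 1546 CPM in the control mice and 329, 239 and 311 CPM in the aPU.1KO mice. The sum of 15 white adipocyte markers was 47410 to 51780 CPM in the control mice and 57700 to 66370 CPM in the others, so the adipocyte identity of the fraction held in every library. At an unadjusted edgeR p under 0.05, which 11.9% of all genes passed as higher and 13.7% as lower in aPU.1KO mice, 10 of the 15 adipocyte markers were higher, 1 (Lep, the gene for leptin) was lower and 13 of the 14 macrophage markers were lower. In such bulk RNA, fewer cells of a type and less RNA per cell cannot be told apart.

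Across the TCA cycle and pyruvate genes, levels were higher in the aPU.1KO mice when libraries were scaled by the TMM method, which assumes that most genes are level, and this direction was lost when libraries were scaled to the white adipocyte markers. With TMM scaling 31 of the 32 genes had a log2 fold change above 0, as did 52.0% of all 13925 genes tested, and the exception was the phosphatase gene Pdp1. The median log2 fold change of the 32 genes was 0.36, against 0.014 over all genes tested, and single genes ranged from -0.27 (Pdp1) to 0.82 (Mpc1, a subunit of the pyruvate carrier). In the edgeR quasi-likelihood test 22 of the 32 genes were higher at an unadjusted p under 0.05, where 11.9% of all genes were, and 0 were lower, where 13.7% were. None of the 32 passed an adjusted p of 0.05 in that test, which 0.237% of all genes did (0.0575% higher and 0.18% lower), and the lowest adjusted p was 0.0724. DESeq2, run as an alternative on the same counts, called 6 of the 32 higher at that threshold (Mpc1, Pdk2, Sdhb, Suclg2, Pdhb and Pdha1) and 0 lower, beside 3.38% and 7.28% of the genes for which it gave an adjusted p. In 19 of the 32 genes every aPU.1KO mouse was above every control mouse (16.7% of all genes), and in 1, Pdp1, every aPU.1KO mouse was below (15.5%). The members are well expressed genes, and 7715 genes lay within their range of average log2 CPM. Among these the higher shares were larger than over all genes, at 15.9% by the unadjusted p and 21.3% without overlap. The lower share by that p was smaller, at 9.86%.

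**Figure D1:**
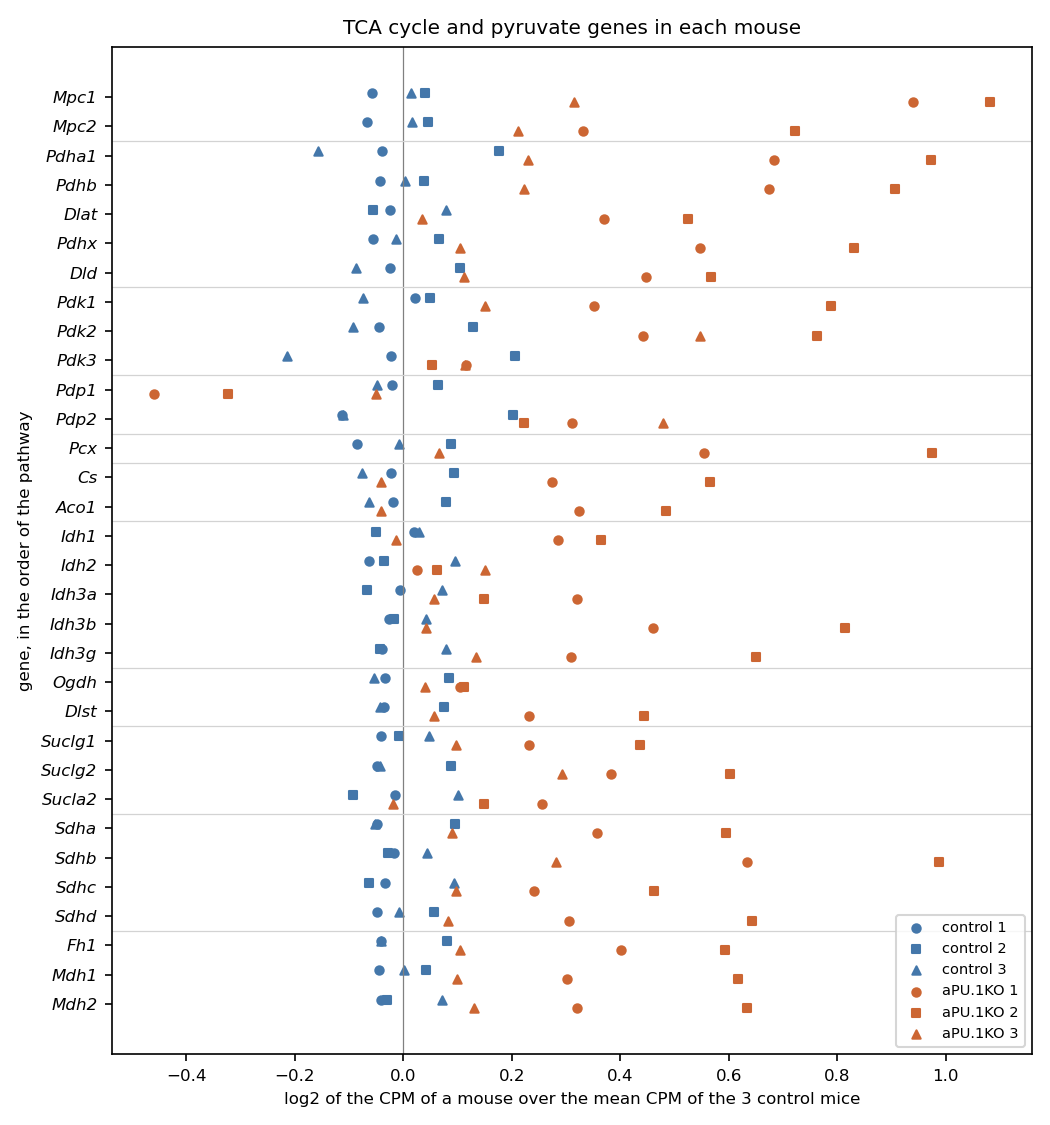
Level of each of the 32 genes in each mouse, as the log2 of its CPM over the mean CPM of the 3 control mice. Blue symbols are control and orange symbols aPU.1KO mice, horizontal lines part the role groups, and under this TMM scaling aPU.1KO mouse 2 (orange square) is the highest of its group in 26 genes and aPU.1KO mouse 3 (orange triangle) the lowest in 27.

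The aPU.1KO mice were not alike. The median over the 32 genes of the log2 ratio to the control mean was 0.32, 0.59 and 0.10 in aPU.1KO mice 1, 2 and 3, against -0.04, 0.05 and -0.008 in control mice 1, 2 and 3. Mice 1 and 2 were each above every control mouse in 29 of the 32 genes, and mouse 3 in 20. Together the 32 genes took 0.699%, 0.711% and 0.734% of all counts in the control mice and 0.864%, 0.968% and 0.737% in the aPU.1KO mice. Mouse 3 was thus close to the control range in the summed share, while the other aPU.1KO mice stood clear of it. The coefficient of variation of a member had a median of 4.88% over the control mice and 17.1% over the aPU.1KO mice, and was larger in the latter for 28 of the 32 genes. Over all genes tested these medians were 8.90% and 13.7%. Without aPU.1KO mouse 3 the median log2 fold change was 0.49, and 25 of the 32 genes were higher at an unadjusted p under 0.05 (13.3% of all genes at that setting) and 29 higher without overlap (24.5%). Without aPU.1KO mouse 2 the median was 0.22, with 10 (10.0%) and 17 (21.5%). Of the 22 genes, 13 then had a log2 fold change more than 1.5 times smaller, namely Mpc2 (0.27), Dlat (0.21), Pdhx (0.34), Pdk1 (0.25), Pcx (0.33), Idh3b (0.26), Idh3g (0.22), Suclg1 (0.16), Sdha (0.23), Sdhc (0.17), Sdhd (0.20), Mdh1 (0.20) and Mdh2 (0.22). None of the 22 moved by that factor when any other single mouse was left out. Genes outside the 22 also had smaller values with 1 mouse left out, at lowest 0.12 (Cs), 0.15 (Aco1), 0.14 (Dlst) and 0.14 (Idh1). Groups are less likely to overlap when a mouse is dropped, so that counts without overlap are to be read against these shares and not against each other. Values of single genes are given in the order of mice 1, 2 and 3 of each group, with TMM scaling unless another is named, and the error of a log2 fold change is its standard error.

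The pyruvate carrier had the highest median log2 fold change of the role groups, at 0.63. It is built of MPC1 and MPC2, which form a heterodimer in the inner mitochondrial membrane. Mpc1 (ENSMUSG00000023861, chr17:8282904-8297661, plus strand) stood at 189.5, 203 and 199 CPM in the control mice and 378, 417 and 245 CPM in the aPU.1KO mice. The means were 197 ± 6.87 CPM in the control mice and 347 ± 90.1 CPM in the aPU.1KO mice (SD, n = 3), a 1.76-fold difference, with a log2 fold change of 0.82 ± 0.19 (SE) and adjusted p values of 0.0796 (edgeR) and 0.00241 (DESeq2). All aPU.1KO mice were above all control mice, and the gap in mouse 3 was much smaller than in mice 1 and 2. Mpc2 stood at 129, 139.9 and 137 CPM in the control mice and 170.5, 224 and 157 CPM in the aPU.1KO mice, again without overlap, and its log2 fold change was 0.44 ± 0.14 (adjusted p = 0.117 by edgeR). Mpc1 was also the only one of the 32 genes that stayed higher at an unadjusted p under 0.05 after scaling to the white adipocyte markers, where its log2 fold change was 0.41 ± 0.16. A processed copy of Mpc1 identical to it over 27.2% of its longest transcript held 4 counts in all 6 libraries together. The exons of Mpc1 also overlap those of 4930506C21Rik, a noncoding gene on the opposite strand that is not among the 35122 genes, by 480 bases.

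All 5 genes of the pyruvate dehydrogenase complex were higher at an unadjusted p under 0.05 (11.9% of all genes) and none passed the adjusted threshold in edgeR (0.237%). Pdha1 and Pdhb encode the subunits of the decarboxylase that starts the reaction. Pdha1 (ENSMUSG00000031299, chrX:160122209-160138413, minus strand) stood at 291, 338 and 268 CPM in the control mice and 480.3, 587 and 351 CPM in the aPU.1KO mice (log2 fold change 0.66 ± 0.20, adjusted p = 0.107 by edgeR and 0.0232 by DESeq2). Pdhb stood at 168, 178 and 174 CPM in the control mice and 277, 325 and 202 CPM in the aPU.1KO mice (log2 fold change 0.63 ± 0.17, adjusted p = 0.0941 by edgeR and 0.0135 by DESeq2). In both genes the groups did not overlap, and aPU.1KO mouse 2 was highest and mouse 3 lowest of its group. The exons of Pdha1 overlap those of Map3k15, on the opposite strand, by 603 bases, but Map3k15 held 883 counts in all libraries.

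The acetyltransferase core of the complex and its dehydrogenase had smaller log2 fold changes. Dlat, the core enzyme, stood at 147, 144 and 158 CPM in the control mice and 193, 215 and 153 CPM in the aPU.1KO mice, so that aPU.1KO mouse 3 lay within the control range. Pdhx, which tethers the dehydrogenase to the core, stood at 40.4, 44.0 and 41.6 CPM in the control mice and 61.3, 74.6 and 45.1 CPM in the aPU.1KO mice with no overlap. Dld, the lipoamide dehydrogenase that this complex shares with the oxoglutarate dehydrogenase complex, stood at 276, 302 and 265 CPM in the control mice and 383, 416 and 304 CPM in the aPU.1KO mice, where aPU.1KO mouse 3 was only just above control mouse 2. Their log2 fold changes were 0.32 ± 0.13, 0.53 ± 0.17 and 0.39 ± 0.13, with adjusted p values of 0.183, 0.127 and 0.134 by edgeR.

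The kinases phosphorylate the complex and switch it off, and their log2 fold changes ran from 0.10 to 0.59. Pdk2 (ENSMUSG00000038967, chr11:95026258-95041354, minus strand), a kinase present in most tissues, had the lowest adjusted p of all 32 genes. It stood at 45.2, 51.0 and 43.8 CPM in the control mice and 63.4, 79.2 and 68.2 CPM in the aPU.1KO mice. The means were 46.7 ± 3.82 CPM in the control mice and 70.2 ± 8.11 CPM in the aPU.1KO mice (SD, n = 3), and the log2 fold change was 0.59 ± 0.11 (adjusted p = 0.0724 by edgeR and 0.000712 by DESeq2). In Pdk2, as in Pdk3, Pdp1, Pdp2 and Idh2, aPU.1KO mouse 3 was not the lowest of its group. Without control mouse 2 the Pdk2 edgeR adjusted p was 0.0248, and no other member passed under that setting, where 1.41% of all genes were higher past that threshold. Pdk1, a kinase known as a target of hypoxia signalling, stood at 43.3, 44.1 and 40.5 CPM in the control mice and 54.4, 73.7 and 47.3 CPM in the aPU.1KO mice, also without overlap (log2 fold change 0.46 ± 0.16, adjusted p = 0.143 by edgeR). Pdk3 lay between 14.8 and 19.7 CPM in the control mice and between 17.8 and 18.6 CPM in the aPU.1KO mice, so that the groups overlapped, with a log2 fold change of 0.10 ± 0.12.

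The phosphatases reverse the action of the kinases, and their genes had log2 fold changes of opposite sign. Pdp2 stood at 25.9, 32.2 and 25.9 CPM in the control mice and 34.8, 32.7 and 39.0 CPM in the aPU.1KO mice (log2 fold change 0.34 ± 0.12, adjusted p = 0.143 by edgeR), without overlap although aPU.1KO mouse 2 and control mouse 2 were nearly level. Pdp1, the calcium-stimulated form, lay between 16.2 and 17.6 CPM in the control mice and between 12.2 and 16.2 CPM in the aPU.1KO mice (log2 fold change -0.27 ± 0.13, adjusted p = 0.245 by edgeR). Pdp1 in aPU.1KO mouse 3 was practically level with control mouse 3, and with upper-quartile scaling the groups overlapped. After scaling to the white adipocyte markers Pdp1 was at -0.65 ± 0.18 with an adjusted p of 0.0353, the only member past the adjusted threshold under that scaling, where 26.2% of all genes were lower by the same adjusted threshold.

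Ratios between isoforms within a library do not depend on how libraries are scaled, and 7 were compared with exact two-sided permutation tests, in which 3 against 3 mice cannot give a p below 0.1. Levels here are CPM per kilobase of exon. Pdp1 made up 44.7%, 40.8% and 44.1% of the summed Pdp1 and Pdp2 level in the control mice and 30.7%, 34.2% and 34.4% in the aPU.1KO mice. The means differed by -10.1 percentage points (43.2% ± 2.11 against 33.1% ± 2.06, SD, n = 3, exact permutation p = 0.1, adjusted p = 0.233 over the 7 ratios) and the groups did not overlap. Pdk3 made up 24.9%, 26.1% and 23.2% of the summed level of Pdk1, Pdk2 and Pdk3 in the control mice and 21.1%, 16.7% and 20.7% in the aPU.1KO mice. This difference of -5.21 percentage points (exact permutation p = 0.1, adjusted p = 0.233) also came without overlap. The Pdk1 share was 20.4% ± 1.04 in control and 20.2% ± 2.71 in aPU.1KO mice, a difference well inside the spread.

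The log2 ratio of the summed level of Pdk1, Pdk2 and Pdk3 to the summed phosphatase level was 1.69, 1.63 and 1.61 in the control mice and 1.96, 2.25 and 1.74 in the aPU.1KO mice. For these 3 kinase genes the ratio was higher in each aPU.1KO mouse than in any control mouse, by 0.34 on the log2 scale on average (exact permutation p = 0.1, adjusted p = 0.233). Without division by length the groups overlapped (exact permutation p = 0.2), and without aPU.1KO mouse 2 the difference was 0.21. Nor did it hold with Pdk4, which is not among the 32 genes but had a higher level per length in the control mice (32.4 CPM per kilobase) than any of the 3. With Pdk4 in the sum, added after the data were seen, the log2 ratio was 2.95, 2.32 and 3.03 in the control mice and 3.01, 2.65 and 2.41 in the aPU.1KO mice. The groups then overlapped and the mean difference was -0.076 (exact permutation p = 0.9). The Pdk3 share of the 4 kinases likewise overlapped, at 11.7% ± 3.96 in control and 12.0% ± 1.54 in aPU.1KO mice (SD, n = 3, exact permutation p = 1.0). With 3 mice in each group none of the 7 ratios could reach an adjusted p of 0.05.

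**Figure D2:**
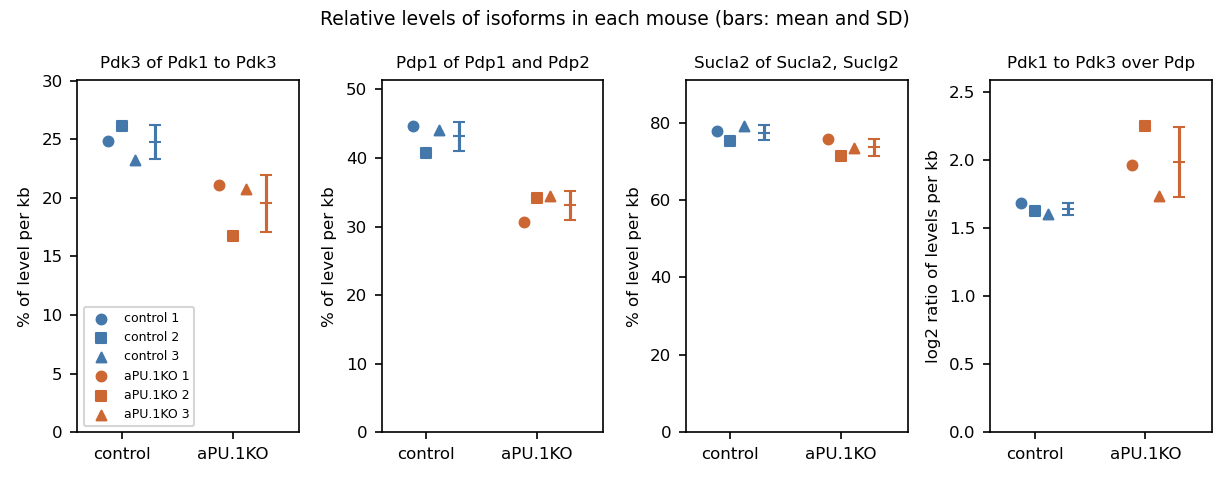
Ratios of levels per kilobase within each mouse: Pdk3 as a percentage of Pdk1, Pdk2 and Pdk3, Pdp1 as a percentage of both phosphatases, Sucla2 as a percentage of both ligase beta genes, and the log2 ratio of Pdk1, Pdk2 and Pdk3 to the phosphatases, all without Pdk4. Points are mice (blue control, orange aPU.1KO) and bars the mean with its SD over 3 mice; the groups overlap for Sucla2, with Pdk4 counted also for the Pdk3 share and the kinase ratio, and without division by length also for the kinase ratio.

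Pyruvate carboxylase (Pcx) was the member with the highest level per length, at 215 CPM per kilobase in the control mean. Pcx (ENSMUSG00000024892, chr19:4510472-4621752, plus strand) stood at 964, 1087 and 1017 CPM in the control mice and 1503, 2011 and 1071 CPM in the aPU.1KO mice. The 3 aPU.1KO values spread widely, and mouse 3 fell just inside the control range, below control mouse 2. The log2 fold change was 0.58 ± 0.22, with an adjusted p of 0.168 by edgeR. The log2 ratio of the Pcx to the Pdha1 level, which sets the enzymes that draw on mitochondrial pyruvate side by side, was 1.43 ± 0.13 in control and 1.33 ± 0.087 in aPU.1KO mice (SD, n = 3, exact permutation p = 0.4, adjusted p = 0.56).

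The entry enzymes of the cycle did not reach an unadjusted p of 0.05. Citrate synthase (Cs), which condenses acetyl-CoA with oxaloacetate, stood at 456, 494 and 439 CPM in the control mice and 559.9, 685 and 450.0 CPM in the aPU.1KO mice, and its log2 fold change was 0.29 ± 0.16. Aco1, the cytosolic aconitase that doubles as an iron-responsive RNA-binding protein, lay between 233 and 257 CPM in the control mice and between 236 and 339.9 CPM in the aPU.1KO mice (log2 fold change 0.27 ± 0.14). In both genes aPU.1KO mice 1 and 2 were above all control mice and mouse 3 was among them.

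Isocitrate dehydrogenases oxidise isocitrate to 2-oxoglutarate, and of their 5 genes 2 regulatory subunits of the NAD-dependent mitochondrial enzyme were higher at an unadjusted p under 0.05 (11.9% of all genes). Idh3b stood at 129, 129.7 and 135 CPM in the control mice and 181, 231 and 135 CPM in the aPU.1KO mice, a pattern without overlap that aPU.1KO mouse 3 and control mouse 3 made nearly a tie. Idh3g stood at 116, 116 and 126 CPM in the control mice and 148, 187 and 131 CPM in the aPU.1KO mice, without overlap. The log2 fold changes of these genes were 0.47 ± 0.18 and 0.38 ± 0.14, with adjusted p values of 0.168 and 0.146 by edgeR. The catalytic subunit gene Idh3a lay between 259 and 285 CPM in the control mice and between 282 and 339 CPM in the aPU.1KO mice (log2 fold change 0.18 ± 0.10), with overlap. Whether Idh3a differed in fold change from the other subunits was not tested.

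Of the NADP-dependent enzymes, the cytosolic Idh1 stood at 420.2, 399.9 and 423 CPM in the control mice and 505, 534 and 410.2 CPM in the aPU.1KO mice (log2 fold change 0.22 ± 0.12), with aPU.1KO mouse 3 inside the control range. The mitochondrial Idh2 lay between 117 and 130.5 CPM in the control mice and between 124 and 136 CPM in the aPU.1KO mice (log2 fold change 0.08 ± 0.08), the smallest log2 fold change of the set in size. Idh1 made up 59.8% ± 0.884 of the summed level of Idh1, Idh2 and Idh3a in control and 61.0% ± 3.09 in aPU.1KO mice (SD, n = 3, exact permutation p = 0.6, adjusted p = 0.7).

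The oxoglutarate dehydrogenase complex makes succinyl-CoA. The median log2 fold change of its genes Ogdh and Dlst was 0.17, the lowest among the role groups of the cycle. This rank depends on Dld (0.39), which the complex also uses, being counted with pyruvate dehydrogenase. Ogdh, the decarboxylase of the complex, stood at 398, 433 and 393 CPM in the control mice and 439, 441 and 419 CPM in the aPU.1KO mice. aPU.1KO mouse 3 lay within the control range, and the log2 fold change was 0.09 ± 0.08 (adjusted p = 0.547 by edgeR). Dlst, the succinyltransferase core, lay between 185 and 201 CPM in the control mice and between 198 and 259.7 CPM in the aPU.1KO mice (log2 fold change 0.25 ± 0.11), and only aPU.1KO mouse 3 was within the control range.

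Succinyl-CoA ligase turns succinyl-CoA into succinate with the gain of a nucleotide triphosphate, and its beta subunit sets whether this is ATP (Sucla2) or GTP (Suclg2). Suclg2 (ENSMUSG00000061838, chr6:95473009-95718800, minus strand) stood at 63.9, 70.3 and 64.2 CPM in the control mice and 86.2, 100.4 and 81.0 CPM in the aPU.1KO mice. All aPU.1KO mice were clear of the control mice, and the log2 fold change was 0.43 ± 0.10 (adjusted p = 0.0786 by edgeR and 0.0116 by DESeq2). Suclg1, the alpha subunit that both forms share, stood at 93.9, 96.2 and 99.8 CPM in the control mice and 114, 131 and 103 CPM in the aPU.1KO mice, also without overlap (log2 fold change 0.26 ± 0.10, adjusted p = 0.163 by edgeR). Sucla2 stood at 194, 184 and 209.8 CPM in the control mice and 234, 217 and 193 CPM in the aPU.1KO mice, with overlap (log2 fold change 0.13 ± 0.10). Sucla2 was the larger beta subunit in every mouse, at 77.8%, 75.2% and 79.1% of the summed level per kilobase in the control mice and 75.9%, 71.5% and 73.4% in the aPU.1KO mice. The mean difference of -3.80 percentage points was not beyond the spread in the exact permutation test (p = 0.2, adjusted p = 0.35).

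All 4 genes of succinate dehydrogenase, which is also complex II of the respiratory chain, were higher at an unadjusted p under 0.05 (11.9% of all genes), and none passed the adjusted threshold in edgeR (0.237%). Sdhb, the iron-sulfur subunit (ENSMUSG00000009863, chr4:140961203-140979193, plus strand), stood at 95.2, 94.4 and 99.2 CPM in the control mice and 149, 191 and 117 CPM in the aPU.1KO mice. Its means were 96.3 ± 2.56 CPM in the control mice and 152 ± 37.0 CPM in the aPU.1KO mice (SD, n = 3), a 1.58-fold difference, and its log2 fold change of 0.66 ± 0.17 had adjusted p values of 0.0893 (edgeR) and 0.00986 (DESeq2). Only Mpc1 had a larger log2 fold change among the 32 genes. Sdha, the flavoprotein that binds succinate, stood at 467, 516 and 466 CPM in the control mice and 619, 729.7 and 514 CPM in the aPU.1KO mice, and aPU.1KO mouse 3 lay just below control mouse 2. Sdhc and Sdhd are the membrane anchors. Sdhc stood at 129.7, 127 and 142 CPM in the control mice and 157, 183 and 142 CPM in the aPU.1KO mice, with aPU.1KO mouse 3 and control mouse 3 nearly level. Sdhd stood at 112, 121 and 116 CPM in the control mice and 144, 182 and 123 CPM in the aPU.1KO mice, without overlap. The log2 fold changes of Sdha, Sdhc and Sdhd were 0.36 ± 0.14, 0.27 ± 0.11 and 0.36 ± 0.14, and their adjusted p values by edgeR 0.17, 0.179 and 0.172.

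The 3 genes of the last steps did not overlap between the groups with TMM scaling, as 16.7% of all genes did in that direction, but none passed the adjusted threshold and all 3 were below 0 on the log2 scale (-0.02 to -0.05) with scaling to the white adipocyte markers. Fumarase (Fh1), which hydrates fumarate to malate, stood at 106, 116 and 106 CPM in the control mice and 145, 165 and 118 CPM in the aPU.1KO mice. Mdh2, the mitochondrial malate dehydrogenase that regenerates oxaloacetate, stood at 244, 246 and 264 CPM in the control mice and 314, 390.1 and 275 CPM in the aPU.1KO mice. Mdh1, its cytosolic counterpart in the malate-aspartate shuttle, stood at 477, 506 and 493 CPM in the control mice and 607, 754 and 527 CPM in the aPU.1KO mice. In each of the 3 genes aPU.1KO mouse 2 was highest and mouse 3 lowest of the group, and the log2 fold changes were 0.38 ± 0.13, 0.38 ± 0.14 and 0.35 ± 0.14 (adjusted p = 0.132, 0.148 and 0.176 by edgeR).

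**Figure D3:**
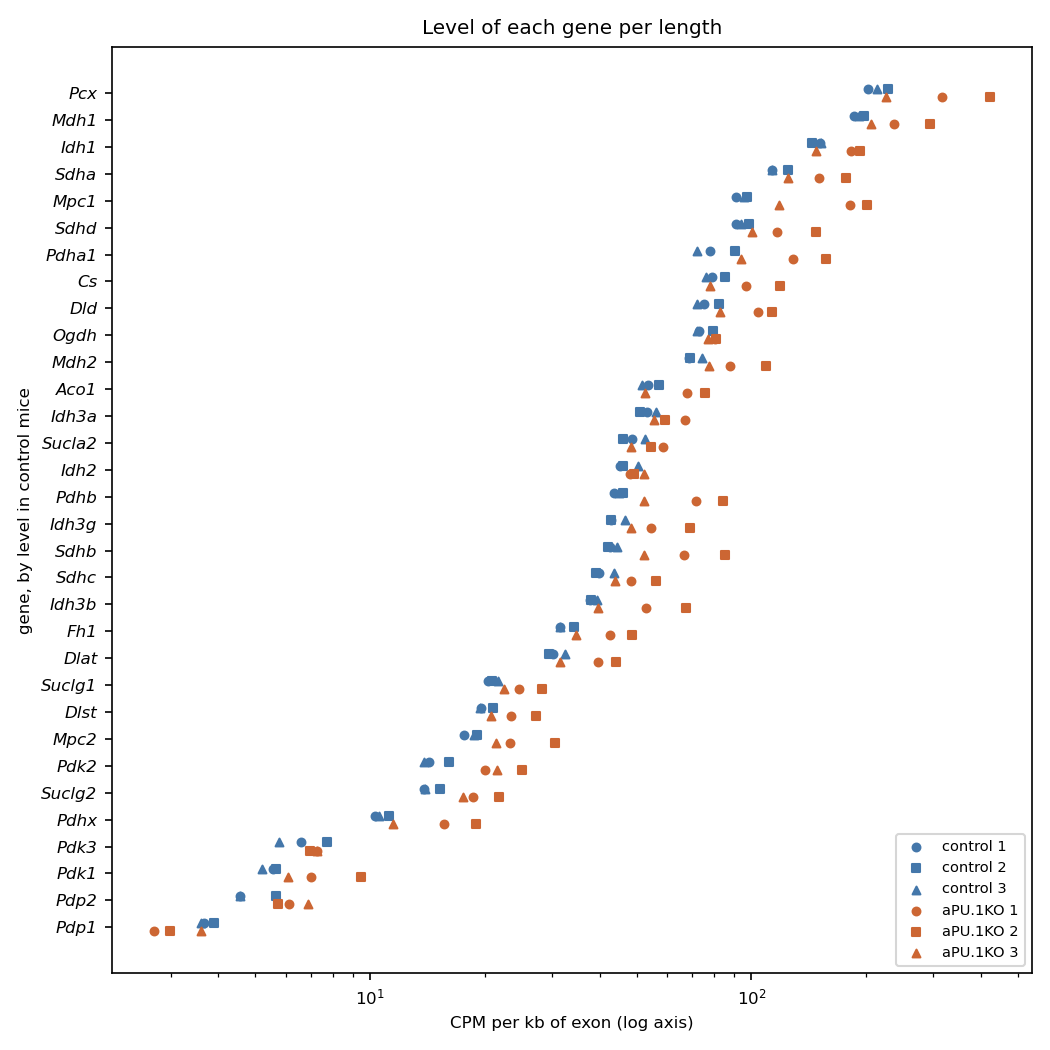
Level of each gene in CPM per kilobase of exon (log axis) in each mouse, with genes in the order of their control mean. Control means run from 3.72 for Pdp1 to 215 for Pcx, and the kinase and phosphatase genes lie at the low end.

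Levels per length, which allow genes to be compared, differed widely within the set. In the control mice the highest means were those of Pcx (215 CPM per kilobase of exon), Mdh1 (192), Idh1 (149.5) and Sdha (117). The lowest were the regulators Pdp1 (3.72), Pdp2 (4.92), Pdk1 (5.48) and Pdk3 (6.68). Mpc1 and Sdhd, at 94.7 and 94.5 CPM per kilobase, were neighbours in this order that did not differ beyond the spread of the control mice. The order depends on the length taken for each gene: with the longest transcript in place of all exons, Mpc1 stood at 205 and Sdhd at 94.5 CPM per kilobase.

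Scaling to the white adipocyte markers turned the direction of most of these differences, and the size of its shift rests on the markers taken. With TMM scaling the 15 markers themselves ran from -0.77 (Lep) to 1.71 (Cfd) in log2 fold change, with a median of 0.34. Other marker lists were not tried. With libraries scaled so that the white adipocyte markers had the same mean log2 level in each, the median log2 fold change of all genes shifted to -0.38 and that of the 32 genes to -0.036, and 11 of the 32 genes were above 0 and 21 below. Such a scaling shifts all genes by nearly the same amount, so the distance of the 32 genes to the median of all genes (0.34 here and 0.35 with TMM) is fixed by its construction. Under it 1 gene, Mpc1, was higher at an unadjusted p under 0.05 (0.840% of all genes) and 3 were lower (Pdp1, Ogdh and Idh2, beside 46.7% of all genes). In the same terms 1 gene was higher (1.16% of all genes) and 3 were lower (51.1%) without overlap between the groups. The genes above 0 under both scalings were Mpc1, Mpc2, Pdha1, Pdhb, Pdhx, Pdk1, Pdk2, Pcx, Idh3b, Suclg2 and Sdhb.

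**Figure D4:**
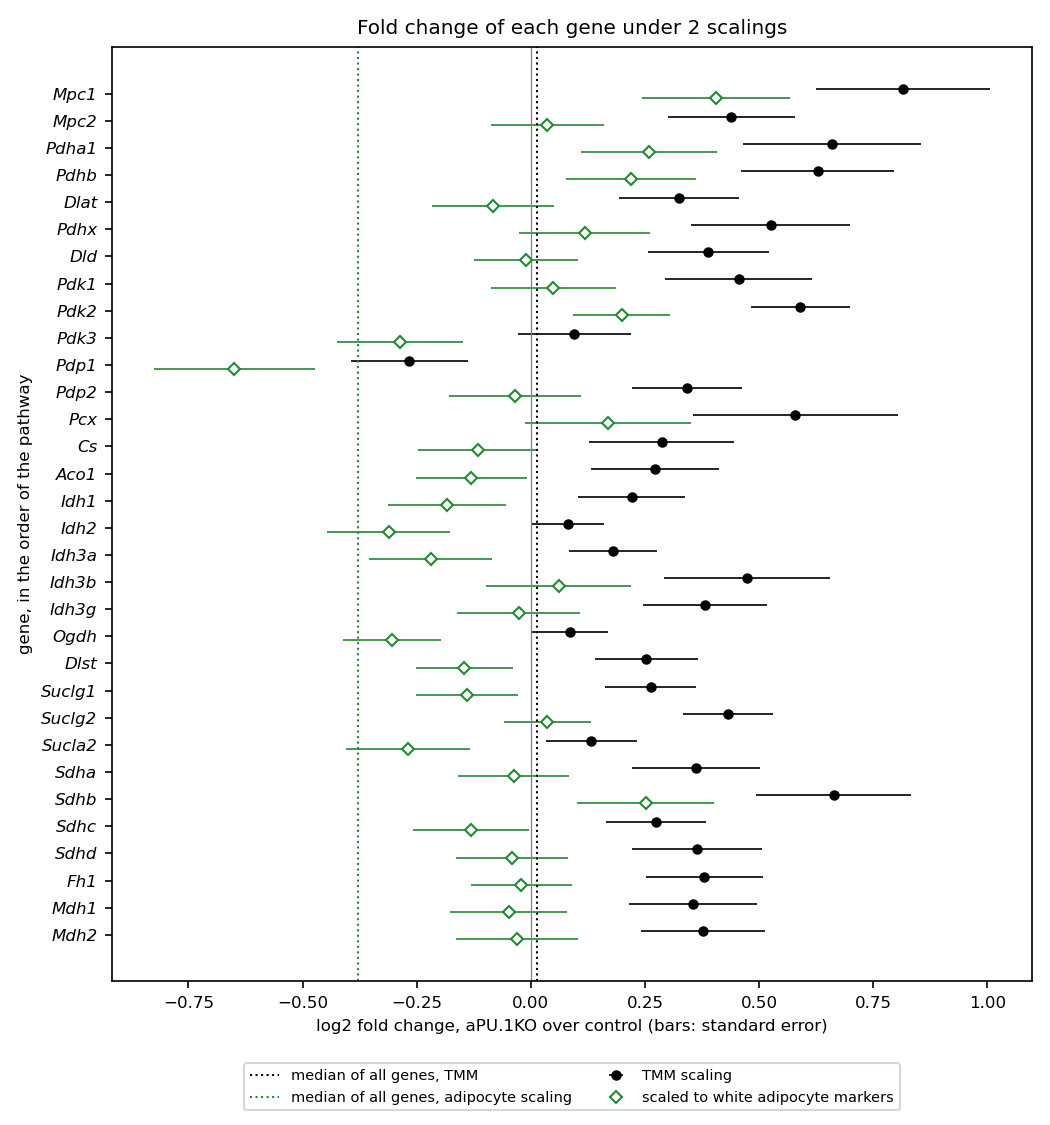
Log2 fold change of each gene, aPU.1KO over control, with its standard error, under TMM scaling (black) and with libraries scaled to white adipocyte markers (green). Dotted lines mark the median of all genes tested under each scaling (0.014 and -0.38), and 20 genes lie above 0 with TMM and below 0 with the marker scaling.

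The members and the marker lists were set side by side in each mouse. The median log2 ratio to the control mean of the white adipocyte markers was 0.34, 0.43 and 0.28 in the aPU.1KO mice, against 0.32, 0.59 and 0.10 for the 32 genes. In aPU.1KO mouse 3 the adipocyte markers were thus above the control mice by more than the TCA cycle and pyruvate genes were. The macrophage markers stood at -1.97, -2.23 and -1.98 in the aPU.1KO mice and at 0.40, -1.37 and 0.31 in the control mice. Control mouse 2, the control with few macrophage transcripts, had a median of 0.05 over the 32 genes and was the highest control in 21 of them. Without it 13 genes were higher at an unadjusted p under 0.05 (11.0% of all genes). With the macrophage score as a covariate the median log2 fold change of the 32 genes was 0.20 and 28 were above 0, but 0 passed an unadjusted p of 0.05 in either direction, where 0.682% and 1.69% of all genes were. The score and the group are closely tied in 6 mice, so that the part of each in the values of the 32 genes cannot be told apart in this design.

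**Figure D5:**
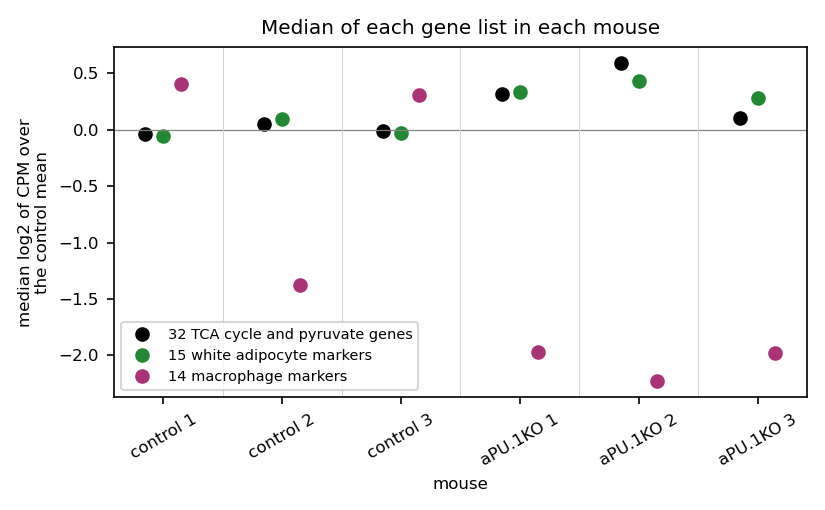
Median over each gene list of the log2 CPM relative to the control mean, for each mouse: the 32 TCA cycle and pyruvate genes (black), 15 white adipocyte markers (green) and 14 macrophage markers (purple). Black points are at 0.32, 0.59 and 0.10 in the aPU.1KO mice under TMM scaling, and control mouse 2 has a low macrophage median (-1.37) with a member median of 0.05.

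Markers of other cells were summed in the same way. The summed level of 9 fibroblast or progenitor markers was 1755 to 2219 CPM in the control mice and 959 to 1466 CPM in the aPU.1KO mice, and that of 12 hepatocyte markers 46.8 to 72.2 and 18.8 to 30.8 CPM. Most of the hepatocyte sum was Alb, and each of the others had a control mean of 5.43 CPM or lower. Their median log2 fold change with Alb was -3.53. Of the 12, 11 were lower without overlap (15.5% of all genes) and 5 were lower past the edgeR adjusted threshold (0.18%). The 8 endothelial markers summed to 545 to 798 and 324 to 709.7 CPM, and the 6 brown or beige adipocyte markers to 19.3 to 22.5 and 17.4 to 26.8 CPM. The 6 striated muscle markers summed to 37.2 to 50.4 CPM in control mice and to 130.2, 42.9 and 35.9 CPM in aPU.1KO mice 1, 2 and 3, nearly all of it from Acta1. The mouse with the highest Acta1 (129 CPM), aPU.1KO mouse 1, was the highest of its group in 3 of the 32 genes. The other muscle markers were each at 0.712 CPM or lower in that mouse. Lymphocyte, mesothelial and testis or epididymis markers were below 20 CPM in sum in every library, and the testis form of the dehydrogenase subunit, Pdha2, was at the floor of 3 counts or fewer in all of them. The part of these cells in the differences was not tested.

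Promoter sequences were examined for the members because most of them moved in the same direction under TMM scaling. RefSeq windows of 250 bases upstream of annotated starts (GRCm38.p6) were held for 29 of the 32 genes, in 39 windows, and were searched on both strands for 5 motifs. The windows shown are 3 of genes called by DESeq2 that are clear of annotated exons, each 5′ to 3′ on the strand of its gene, with capitals marking the GC box motif. They are for Pdk2 (chr11:95041372-95041621, minus strand), Suclg2 (chr6:95718847-95719096, minus strand) and Pdha1 (chrX:160138431-160138680, minus strand).
Pdk2: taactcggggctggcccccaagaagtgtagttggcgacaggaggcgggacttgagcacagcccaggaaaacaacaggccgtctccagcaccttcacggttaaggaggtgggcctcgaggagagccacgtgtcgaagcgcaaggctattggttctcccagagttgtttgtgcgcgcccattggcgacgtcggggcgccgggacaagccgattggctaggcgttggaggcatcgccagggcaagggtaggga
Suclg2: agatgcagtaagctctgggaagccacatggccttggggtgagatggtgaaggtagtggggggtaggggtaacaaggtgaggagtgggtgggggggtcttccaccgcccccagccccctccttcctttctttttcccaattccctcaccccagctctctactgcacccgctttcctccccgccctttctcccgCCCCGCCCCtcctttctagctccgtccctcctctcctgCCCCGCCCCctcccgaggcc
Pdha1: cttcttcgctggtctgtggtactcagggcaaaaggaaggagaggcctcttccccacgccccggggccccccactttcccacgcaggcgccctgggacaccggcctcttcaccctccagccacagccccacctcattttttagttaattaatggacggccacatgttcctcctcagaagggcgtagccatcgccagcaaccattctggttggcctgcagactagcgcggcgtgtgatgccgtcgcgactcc

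The Suclg2 window holds 2 copies of the GC box, both on the opposite strand, and the windows of Pdk2 and Pdha1 hold none of the 5 motifs. The GC box (GGGGCGGGG, bound by Sp1 family factors) was in 23.1% of the member windows (9 of 39) and in 10.4% of the 32851 windows of all genes. The motif of nuclear respiratory factor 1 (GCGCATGC), a regulator of mitochondrial genes, was in 3 of the member windows (7.69%) and in 2.26% of all windows, but 2 of the 3 are overlapping windows of Ogdh that hold the same match, and the other is that of Sdhb. The motif of estrogen-related receptors (TCAAGGTCA) was in 0 member windows and 0.387% of all windows. A general ETS motif (CCGGAAGT) was in 0 and 2.88%, and a PU.1 motif (GAGGAAGT), which shares its last 6 letters with the ETS motif, was in 0 and 2.44%. These are matches of letters in a short window and not sites of binding.

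Genes around the cycle were read from a list of 44, all of which were tested. Of these, 15 were higher and 3 lower by the unadjusted threshold, beside 11.9% and 13.7% of all genes, and the median log2 fold change was 0.20. Past the adjusted threshold were 0 in edgeR (0.237% of all genes) and 9 in DESeq2 (10.7%), of which 6 were higher. Citrate leaves the mitochondrion through the carrier Slc25a1 and is split by ATP citrate lyase (Acly) into the acetyl-CoA of lipid synthesis. Acly stood at 418, 472 and 326 CPM in the control mice and 1074, 1232 and 649 CPM in the aPU.1KO mice, with no overlap and a log2 fold change of 1.28 ± 0.26 (adjusted p = 0.0764 by edgeR), which was larger than that of any of the 32 genes. Slc25a1 stood at 294, 297 and 325 CPM in the control mice and 409, 631 and 319 CPM in the aPU.1KO mice (log2 fold change 0.57 ± 0.24, adjusted p = 0.191 by edgeR), and aPU.1KO mouse 3 lay within the control range. The log2 fold change of Slc25a1 ranged from 0.25 to 0.77 when each mouse was left out. Pck1, which draws oxaloacetate off to phosphoenolpyruvate, stood at 1125, 1614 and 947 CPM in the control mice and 2633, 2074 and 2143 CPM in the aPU.1KO mice, without overlap (log2 fold change 0.89 ± 0.22, adjusted p = 0.0856 by edgeR).

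Pdk4, the kinase induced in fasting, stood at 129.9, 63.6 and 147 CPM in the control mice and 129, 46.7 and 72.5 CPM in the aPU.1KO mice. Its values spread widely in both groups, and its log2 fold change of -0.46 ± 0.43 was about the size of its standard error. Lactate dehydrogenase connects pyruvate with lactate, and its genes Ldha and Ldhb had log2 fold changes of 0.33 ± 0.13 and 0.12 ± 0.11 (adjusted p = 0.181 and 0.538 by edgeR).

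The list's lowest p values included a gene that serves members of the 32 directly. Lias makes the lipoate that Dlat and Dlst carry, and it stood at 48.3, 50.1 and 51.6 CPM in the control mice and 65.4, 66.4 and 60.3 CPM in the aPU.1KO mice, without overlap (log2 fold change 0.36 ± 0.07, adjusted p = 0.0764 by edgeR). Slc25a22, a mitochondrial glutamate carrier, stood at 45.9, 45.9 and 48.9 CPM in the control mice and 58.5, 64.2 and 54.3 CPM in the aPU.1KO mice (log2 fold change 0.33 ± 0.08, adjusted p = 0.0886 by edgeR). Both genes were higher in each aPU.1KO mouse than in any control mouse under TMM scaling. Got1, the cytosolic aspartate transaminase, went the other way, at 12.4, 8.89 and 11.7 CPM in the control mice and 4.37, 4.07 and 7.06 CPM in the aPU.1KO mice (log2 fold change -1.09 ± 0.25, adjusted p = 0.0786 by edgeR). The other genes lower at an unadjusted p under 0.05 were the lactate transporter Slc16a3 and the aspartate-glutamate carrier Slc25a13, at log2 fold changes of -1.80 ± 0.53 and -2.95 ± 0.76, and both were also low in control mouse 2 (these 2 were named after their values were seen). With scaling to the white adipocyte markers the counts over the 44 genes were 2 higher and 12 lower by the same threshold, beside 0.84% and 46.7% of all genes. Acly, Pck1 and Got1 kept their direction under it, at 0.88, 0.52 and -1.48 on the log2 scale, and Lias and Slc25a22 turned to -0.04 and -0.07.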

How the data were processed

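RNA of the adipocyte fraction was measured in 6 mice, 1 library each. The deposited values are estimated counts for each gene, whole numbers that the authors made with Salmon and summed to genes. The submitters' processing notes name GRCm38, Salmon and FastQC, and versions are not given in the sources used here. Mice are numbered in the order of their labels. The age is that of the labels (10 to 11 months), while the study's text has more than 1 year.

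The test was the quasi-likelihood F test of edgeR 4.0.16 in R 4.3.3, with filterByExpr, TMM factors and the default glmQLFit, over 13925 genes and with Benjamini-Hochberg adjustment over all of them. The study used DESeq2, which was run as an alternative (1.42.0). CPM values are TMM-scaled, and the common biological coefficient of variation was 0.194. Depth was 20550252 to 69283842 counts, and member counts were at least 240 in every library. P-values measure the spread between mice. Per-kilobase levels used the union of exons (GENCODE M21). Floors of 3 counts cover counting error only. Ratios were tested with exact permutation tests in scipy 1.17.1. Scripts were tested on simulated data. Members, lists and tests were chosen with earlier results of these data known. All 32 members are named, with values in every mouse for those at an unadjusted p under 0.05 and the highest of each role group. Of the list around the cycle, the 6 genes of lowest p and 7 set genes were to be named, and results for some of them are not reported here. The 17 alternative settings of the fit were other scalings, filters, dispersions, tests, a covariate, thinning and leaving out each mouse.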

Additional observations from a re-analysis of the deposited data

How the results depend on the processing

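With 3 mice in each group, only a part of these values is stable. The number of the 32 genes higher at an unadjusted p under 0.05 (22) ranged from 6 to 25 when each mouse was left out. Leaving out control mice 1, 2 and 3 gave 6, 13 and 10, and leaving out aPU.1KO mice 1 and 2 gave 8 and 10, while the share over all genes was 4.15% to 13.3%. It was 0 with the macrophage score as a covariate and 1 with scaling to the white adipocyte markers. The number lower was 0 to 1 when each mouse was left out, with 1 without aPU.1KO mouse 3, and 3 with marker scaling. The number past the adjusted threshold was 6 with DESeq2, 1 with marker scaling and 0 to 1 when each mouse was left out, with 1 without control mouse 2. The number higher without overlap (19) was 1 with marker scaling and 15 with RLE factors (15.0% of all genes). It was 17 to 29 when each mouse was left out, with 29 without aPU.1KO mouse 3, where overlap is less likely for all genes and the share over all genes was 16.1% to 24.5%. The number lower without overlap was 3 with marker scaling and 0 with upper-quartile factors. The median log2 fold change was 0.20 with the covariate, -0.036 with marker scaling and 0.22 to 0.49 when each mouse was left out.

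With marker scaling the log2 fold change turned below 0 in Dlat (-0.084), Dld (-0.010), Pdk3 (-0.29), Pdp2 (-0.035), Cs (-0.12), Aco1 (-0.13), Idh1 (-0.18), Idh2 (-0.31), Idh3a (-0.22), Idh3g (-0.027), Ogdh (-0.30), Dlst (-0.15), Suclg1 (-0.14), Sucla2 (-0.27), Sdha (-0.038), Sdhc (-0.13), Sdhd (-0.040), Fh1 (-0.021), Mdh1 (-0.049) and Mdh2 (-0.030). This scaling lowers log2 fold changes across genes by its construction, since it sets the white adipocyte markers level between mice. By how much depends on the 15 markers taken. With the covariate it turned below 0 in Pdk3 (-0.21), Cs (-0.011) and Ogdh (-0.067), and without control mouse 3 in Pdk3 (-0.00425). No direction of the 32 genes turned under the other settings that were run.

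Spi1 was past the adjusted threshold with DESeq2 (-2.75, adjusted p = 7.77e-05) and with marker scaling (-3.16, adjusted p = 0.024). It ranged from -3.17 to -2.39 when each mouse was left out, was past the threshold without control mouse 2 (edgeR adjusted p = 0.0123), and was at 0.018 with the covariate, where the cause was not tested. The list around the cycle held 9 higher genes with at least 10 counts in every library, 1 with the covariate and 2 with marker scaling, and 0 and 12 lower genes with the latter settings. When each mouse was left out it held 6 to 16 higher genes, 6 when control mouse 1 and 8 when aPU.1KO mouse 1 was the mouse left out. The difference in the Pdk1 share ranged from -1.49 to 1.21 percentage points when each mouse was left out (3.21 with Pdk4 counted among the kinases), and that in the Idh1 share from -0.210 to 2.87. With Pdk4 counted, an alternative chosen after seeing the data, the difference in the Pdk3 share was 0.236 percentage points and that in the log2 ratio of kinases to phosphatases -0.076. The cause of these shifts was not tested. No paired analysis was run. The study names littermate controls, but the labels carry a number for each mouse and none that the groups share.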

Other observations

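The transhydrogenase Nnt, a mitochondrial enzyme that links the NADH made by the cycle to NADPH and that is partly deleted in some C57BL/6 substrains, has 2 gene models in the annotation and was left out of the counts over the list around the cycle. The longer model (ENSMUSG00000025453) held 1407, 504 and 413 counts in control mice 1, 2 and 3 and 345, 528 and 297 counts in aPU.1KO mice 1, 2 and 3. The second model (ENSMUSG00000116207) held 0 counts in all control mice and 180, 0 and 235 counts in aPU.1KO mice 1, 2 and 3. The second model was thus counted in 2 of 3 aPU.1KO mice and in none of the control mice, and this was seen after the values were known. Its part in the values of the 32 genes was not tested, and aPU.1KO mouse 2, without counts in it, had the highest member median.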
